A study of Mus musculus with 20 samples.

Results

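The comparison described here is that of the 4 libraries labelled mNKX3.1+UTY_sh with the 4 labelled UTY_sh, 8 of the 20 libraries of the study, over the genes with a value of 5 or more in at least 4 of the 20 libraries. That rule kept 13456 of the 23284 genes in the table and uses no difference between the groups. Both groups are labelled with the hairpin against UTY, so the comparison asks what the construct labelled mNKX3.1 adds when that label is on both sides. The grafts were tissue recombinants, in which mouse epithelium is put together with embryonic rat mesenchyme and grown in a host. The mNKX3.1+UTY_sh group is seminal vesicle epithelium with the construct and the hairpin, and the UTY_sh group is seminal vesicle epithelium with the hairpin alone. The groups used beside them are mNKX3.1, seminal vesicle epithelium with the construct alone, PE, unmodified prostate epithelium, and SVE, unmodified seminal vesicle epithelium. Every group was combined with urogenital sinus mesenchyme of Sprague Dawley rats and collected 3 months after implantation. Epithelial donors were mice aged 2 months, given as C57Bl/6J in one label and as a hybrid of 129/SvImJ and C57Bl/6J in another. Doxycycline was given in the drinking water for 3 months, and the vector is described as an altered inducible pTRIPZ. What the m of mNKX3.1 stands for is not explained in the labels, whose treatment protocol mentions a wild type and a mutant form, so the construct is called only by its label.

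NKX3.1 is a homeobox transcription factor of the prostate epithelium, where it is needed for normal ductal growth and secretion, and it is commonly used as a marker of prostate identity. UTY is encoded on the Y chromosome and is related to KDM6A, a demethylase of histone H3K27, and EHMT2, also called G9a, methylates histone H3 on lysine 9. The series' title places the 3 proteins in 1 network acting in prostate differentiation. Seminal vesicle and prostate both secrete under androgen, but they come from different embryonic ducts and release different proteins, the Svs proteins in the seminal vesicle and probasin, Tgm4, Msmb and spermine-binding protein in the prostate.

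No gene passed the test between the libraries labelled mNKX3.1+UTY_sh and those labelled UTY_sh. Seminal vesicle transcripts were near the level of the hairpin-only grafts in the grafts labelled mNKX3.1+UTY_sh, and no prostate transcript was called higher in them. limma, with Benjamini-Hochberg adjustment over 13456 genes, called 0 genes at an adjusted p below 0.05, a background of 0%, and the smallest adjusted p was 1 after rounding. At an unadjusted p below 0.05 limma listed 217 genes, 1.61% of those tested, where chance gives about 1 in 20. Of the 217 genes, 115 were higher (0.855%) and 102 lower (0.758%). A fit of the 8 libraries alone likewise gave 0 calls, and 285 genes had an unadjusted p below 0.05 in it. The groups did not overlap for 226 genes, or 1.68%, with 107 higher (0.795%) and 119 lower (0.884%). For 4 against 4 libraries chance gives a share of about 0.0286. The median size of the difference was 0.0582 on the log2 scale, and its 95% interval lay within 1 log2 unit of 0 for 12847 genes (95.5%) and within 0.5 for 10613 (78.9%). Nothing in the labels states that the 4 libraries of a group come from different animals or hosts, and p-values then measure only how these samples scatter, which may be technical.

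Each library held about 24050000 to 29810000 reads in mNKX3.1+UTY_sh and 22520000 to 24950000 in UTY_sh, read from the step size of the deposited values. Pairs of libraries correlated across genes at r of 0.973 to 0.993 within mNKX3.1+UTY_sh, 0.981 to 0.989 within UTY_sh and 0.975 to 0.993 between the groups, and no pair held identical values. The first principal component of the 8 libraries took 51.4% of their variance and did not separate the groups. It placed mNKX3.1+UTY_sh at -24.3, -23.9, 4.12 and 29.1 and UTY_sh at -13.9, 17.5, 22.3 and -10.9, and the genes with the largest loadings were 9530053A07Rik, 9530002B09Rik, Pbsn and Tgm4, all prostate genes described further on.

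Uty, the hairpin's named target, was near the level of unmodified seminal vesicle grafts in both groups labelled with the hairpin. It averaged 9.22 ± 0.23 in UTY_sh and 9.29 ± 0.21 in SVE (SD, n = 4 each), a difference of -0.07 (95% interval -0.30 to 0.16, limma adjusted p = 0.999), so a lower Uty transcript with the hairpin alone was not seen. These poly-A libraries do not measure the protein, and presence of the hairpin rests on the labels. Uty stood at 9.12, 9.12, 9.09 and 9.29 in mNKX3.1+UTY_sh, against 9.16, 9.22, 9.52 and 8.98 in UTY_sh. The groups overlapped. The difference was -0.07 (95% interval -0.30 to 0.16), whereas mNKX3.1 stood 0.94 above SVE. The interaction, the construct's difference with the hairpin minus that without it, was -1.01 (limma adjusted p = 4.09e-05). The interaction was called for 48.1% of all genes. Of 4 Y chromosome genes tested it was called for 2, both negative, Uty and Ddx3y at -0.88 (limma adjusted p = 0.00049). Uty averaged 10.23 in mNKX3.1 and 10.24 in PE. Ehmt2 had 11.43, 11.37, 11.32 and 11.34 in mNKX3.1+UTY_sh, against 11.24, 11.24, 11.24 and 11.42 in UTY_sh. Its difference was 0.08 (95% interval -0.04 to 0.20), with library 4 of UTY_sh level with the other group. Over the list of histone H3K9 and H3K27 enzymes, 0 of 18 members tested were called and the median difference was -0.02. All 18 had intervals within 1 log2 unit of 0, among them the H3K9 demethylase Kdm4a at 0.10, Kdm6a at -0.05, Kdm6b at 0.10 and Ezh2, the catalytic subunit of the Polycomb complex, at -0.03.

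**Figure D1:**
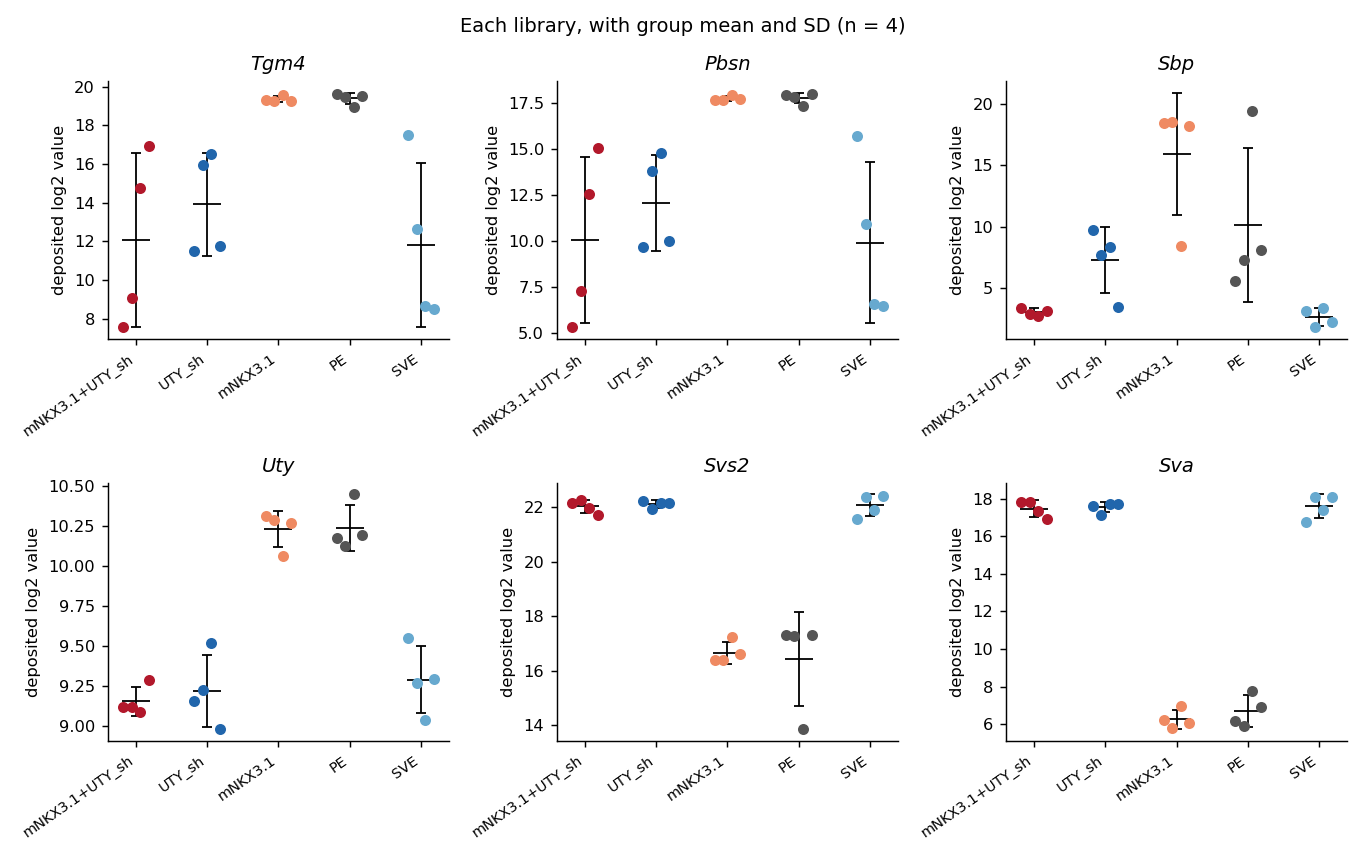
Deposited log2 values of Tgm4, Pbsn, Sbp, Uty, Svs2 and Sva in each library of the 5 groups; points are libraries, the bar and whiskers the mean and SD of 4. The mNKX3.1+UTY_sh points lie with UTY_sh and SVE for Svs2 and Sva, and Pbsn ranges over 5.29 to 15.06 in them.

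Seminal vesicle secretory genes were abundant in all 8 grafts, with Svs2 at the highest value of the table in each, and they differed little between the groups. Of 18 listed, 17 were tested and 0 were called. Their differences ran from -0.08 to 0.01 with a median of -0.03, beside a median of 0.00125 over all genes tested. Intervals lay within 1 log2 unit of 0 for 13 of the 17, and that of Svs2 ran from -1.50 to 1.33. Svs2, a major protein of the copulatory plug, had 22.17, 22.28, 21.99 and 21.72 in mNKX3.1+UTY_sh, against 22.25, 21.93, 22.17 and 22.15 in UTY_sh. The groups overlapped, and the lowest was library 4 of mNKX3.1+UTY_sh. Sva, the seminal vesicle autoantigen that binds sperm, had 17.83, 17.82, 17.33 and 16.93 in mNKX3.1+UTY_sh, against 17.60, 17.16, 17.73 and 17.73 in UTY_sh. Its difference was -0.07 (95% interval -0.85 to 0.70), while the difference of mNKX3.1 from SVE without the hairpin was -11.34. Svs6 differed by -0.03, Svs1 by -0.00, Svs4 by -0.08, Svs5 by -0.02, Ceacam10, an adhesion molecule secreted by the gland, by -0.03, 9530003J23Rik by -0.04 and Dnase2b by 0.01. Pate4, a small secreted protein placed in both secretory lists, differed by -0.06. In the comparison without the hairpin, where 30.6% of all genes were called lower and 31.7% higher, 14 of the 17 were lower in mNKX3.1 and 2 were higher, with a median of -9.83. The interaction was positive and called for 14 of the 17, beside 24% of all genes, led by Sva at 11.26 (limma adjusted p = 1.50e-11) and Svs6 at 11.25 (3.82e-11).

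Svs3a and Svs3b are near copies, and reads could be split between them in counting, so the values of each are uncertain. Svs3a had 18.47, 18.57, 18.27 and 17.98 in mNKX3.1+UTY_sh, against 18.48, 18.21, 18.30 and 18.39 in UTY_sh, a difference of -0.02. Svs3b had 17.89, 17.94, 17.65 and 17.38 in mNKX3.1+UTY_sh, against 17.89, 17.59, 17.83 and 17.82 in UTY_sh, a difference of -0.07. Without the hairpin both were lower in mNKX3.1 than in SVE, with differences of -10.88 and -10.91. Their promoter windows are shown beside that of Pbsn because these genes stand at the opposite ends of the interaction. The windows run from 250 bases before to 50 bases after the start of each gene, from RefSeq on GRCm38.p6, a later build than that of the data, and were matched by symbol alone. Capitals mark TAAGTA, a hexamer that NKX3.1 is known to bind, searched on both strands with no other motif.
Pbsn, chrX:77853451-77853750, minus strand: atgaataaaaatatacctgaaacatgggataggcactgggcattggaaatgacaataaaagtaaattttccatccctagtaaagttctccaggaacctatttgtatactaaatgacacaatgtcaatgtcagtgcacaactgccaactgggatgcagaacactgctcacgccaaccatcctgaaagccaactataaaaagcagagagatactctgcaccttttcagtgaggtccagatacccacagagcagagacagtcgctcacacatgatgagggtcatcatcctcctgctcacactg
Svs3a, chr2:164289017-164289316, plus strand: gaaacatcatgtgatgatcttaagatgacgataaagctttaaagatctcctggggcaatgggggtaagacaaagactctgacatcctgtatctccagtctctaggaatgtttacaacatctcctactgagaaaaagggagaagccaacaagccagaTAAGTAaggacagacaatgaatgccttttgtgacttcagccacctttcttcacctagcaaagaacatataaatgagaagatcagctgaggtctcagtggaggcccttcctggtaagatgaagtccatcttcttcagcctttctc
Svs3b, chr2:164256594-164256893, minus strand: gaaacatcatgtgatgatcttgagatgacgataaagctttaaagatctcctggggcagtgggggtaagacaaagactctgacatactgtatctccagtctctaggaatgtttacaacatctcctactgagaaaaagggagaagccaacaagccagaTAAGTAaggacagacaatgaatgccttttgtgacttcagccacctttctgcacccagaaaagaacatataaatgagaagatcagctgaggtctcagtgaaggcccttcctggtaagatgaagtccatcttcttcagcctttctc
The Svs3a and Svs3b windows have the same base at 293 of 300 positions (97.7%). Both hold 1 copy of the hexamer, and the Pbsn window holds 0. Of the 16 genes named in the interaction, 12 had a window and 2 of those held it (16.7%), beside 2492 of all 32851 windows (7.59%). These 2 are the near copies themselves, and a match is a description of letters only.

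Many prostate secretory genes varied widely between libraries of the same group, and none was called higher with the construct label. Pate4, also in the seminal vesicle list, was an exception, at 19.03 to 19.41 in all 8 libraries. Of 23 listed, 20 were tested and 0 were called; 18 differences were negative, beside 49.3% of all genes, 0 had an unadjusted p below 0.05, and 2 genes had groups that did not overlap, beside 1.68% of all genes. The median difference was -1.06, with intervals within 1 log2 unit of 0 for only 3 members. For the other members changes of more than 1 log2 unit lie within the intervals, whose width differed by gene. The interval was -6.16 to 2.09 for Pbsn, -3.05 to 0.15 for Msmb and -1.39 to 1.39 for Gsdma. Single libraries set the size of that median, which was -0.37 without library 1 of mNKX3.1+UTY_sh, -2.29 without library 4 of mNKX3.1+UTY_sh and -1.79 without library 4 of UTY_sh. The mean level of the list was 7.15 ± 1.67 in mNKX3.1+UTY_sh, 8.41 ± 1.26 in UTY_sh and 7.21 ± 1.74 in SVE (SD over libraries). In the comparison without the hairpin the median was 7.47, with 18 of the 20 called higher in mNKX3.1 and 2 lower, beside 31.7% and 30.6% of all genes. The interaction was negative and called for 18 of the 20, beside 24% of all genes. Fewer prostate-type cells in a graft and less of the RNA per cell cannot be told apart in these bulk libraries.

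Within the prostate list, 1 set of genes was high in the same 4 libraries, which belong to both groups. Pbsn, the androgen-dependent secretory gene of probasin, had 5.29, 7.27, 12.56 and 15.06 in mNKX3.1+UTY_sh, against 9.69, 13.81, 14.81 and 10.02 in UTY_sh. The difference was -2.04 (95% interval -6.16 to 2.09, limma unadjusted p = 0.313). The mNKX3.1+UTY_sh group held both the lowest and the highest of the 8 values. The Pbsn difference was -0.45, -1.11 and -3.71 without library 1, 2 or 4 of mNKX3.1+UTY_sh, and -1.13 without library 3 of UTY_sh. Tgm4, the prostate transglutaminase that cross-links seminal proteins, had 7.55, 9.06, 14.75 and 16.95 in mNKX3.1+UTY_sh, against 11.48, 15.94, 16.50 and 11.75 in UTY_sh. 9530053A07Rik, the most abundant transcript of the PE libraries, had 9.03, 10.77, 16.96 and 18.87 in mNKX3.1+UTY_sh, against 13.48, 18.11, 18.18 and 13.65 in UTY_sh. In all 3 genes libraries 3 and 4 of mNKX3.1+UTY_sh and libraries 2 and 3 of UTY_sh were high. Unmodified SVE grafts varied widely too, with Pbsn at 15.7, 10.9, 6.6 and 6.4 and Tgm4 at 17.5, 12.6, 8.6 and 8.5. Azgp1, a secreted lipid-mobilising glycoprotein, Agr2, a disulfide isomerase of secretory cells, and Hoxb13, the posterior homeobox factor of the prostate, followed a like order, with differences of -1.09, -1.02 and -1.03. Gsdma, a gasdermin, also had its highest value of each group in the library richest in Pbsn, at 11.79 in mNKX3.1+UTY_sh and 11.50 in UTY_sh, and its difference was -0.00 (95% interval -1.39 to 1.39).

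The proportions among these genes were close to those of the prostate grafts in some genes and far from them in others, a measure chosen after the values were seen. Gaps between 2 genes are compared only across libraries, where gene length cancels. Msmb, a secreted beta-microseminoprotein, stood below Pbsn by 2.33, 4.03, 9.19 and 9.03 in mNKX3.1+UTY_sh, against 3.64, 8.17, 8.43 and 6.67 in UTY_sh. In PE that gap ran between 2.02 and 3.86 and in mNKX3.1 between 2.68 and 3.72. Unmodified seminal vesicle grafts, SVE, spanned 2.60 to 8.71, so wide gaps were not particular to grafts labelled with the hairpin. Tgm4 stood above Pbsn in every one of these libraries, so that Pbsn minus Tgm4 was -2.26, -1.80, -2.19 and -1.88 in mNKX3.1+UTY_sh, against -1.79, -2.14, -1.69 and -1.73 in UTY_sh, with -1.71 to -1.51 in PE. In library 4 of mNKX3.1+UTY_sh and libraries 2 and 3 of UTY_sh, where Pbsn was above 12 and Msmb above 5, Msmb was several log2 units lower, relative to Pbsn, than in PE. Msmb was near the floor in libraries 1, 2 and 3 of mNKX3.1+UTY_sh and library 4 of UTY_sh. In libraries 1 and 2 of mNKX3.1+UTY_sh Pbsn was low too, and the gap cannot be read. In library 3 of mNKX3.1+UTY_sh and library 4 of UTY_sh the gaps were 9.19 and 6.67. Compression towards the floor would understate them, but values this low also scatter, with a median SD of 0.458 among genes near the floor. Both lie above the range of PE, and the gap of 6.67 lies within that of SVE.

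A different set of prostate genes had negative differences that did not pass the test, the largest of them that of Sbp, the spermine-binding protein gene. Sbp had 3.45, 2.95, 2.76 and 3.19 in mNKX3.1+UTY_sh, against 9.72, 7.68, 8.33 and 3.48 in UTY_sh. All 4 mNKX3.1+UTY_sh libraries lay near the floor of the table, and library 4 of UTY_sh lay just above them. The floor is the low end, where genes with a mean under 2.3 had a median level of 2.20. It is not a lower limit, since the lowest single value was 0.0193. The Sbp difference was -4.22 (95% interval -9.32 to 0.89), with a limma unadjusted p of 0.10 and an exact two-sided permutation p of 0.0286, which is the smallest that 4 against 4 can give and was not adjusted. Its relative Sbpl differed by -3.08 and overlapped between the groups. 5430419D17Rik had 2.91, 1.91, 2.40 and 3.39 in mNKX3.1+UTY_sh, against 5.79, 4.36, 5.16 and 3.56 in UTY_sh, a difference of -2.06 (95% interval -4.25 to 0.13). Msmb had 2.97, 3.24, 3.37 and 6.04 in mNKX3.1+UTY_sh, against 6.06, 5.63, 6.37 and 3.35 in UTY_sh, so that 1 library of each group went with the other. Sbp also varied within mNKX3.1 and PE, with SDs of 4.98 and 6.26. Sbp had 18.48, 18.53, 8.46 and 18.22 in mNKX3.1, and 5.63, 7.35, 19.38 and 8.14 in PE. In unmodified SVE grafts Sbp averaged 2.69, beside 3.09 in mNKX3.1+UTY_sh and 7.30 in UTY_sh. For 5430419D17Rik the means in that order were 2.99, 2.65 and 4.72, and for Msmb 4.64, 3.90 and 5.35. Sbp and 5430419D17Rik in mNKX3.1+UTY_sh were thus near SVE, and UTY_sh stood above both. Sbp did not follow Pbsn, since library 4 of mNKX3.1+UTY_sh had the highest Pbsn of the 8 and Sbp at 3.19.

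**Figure D2:**
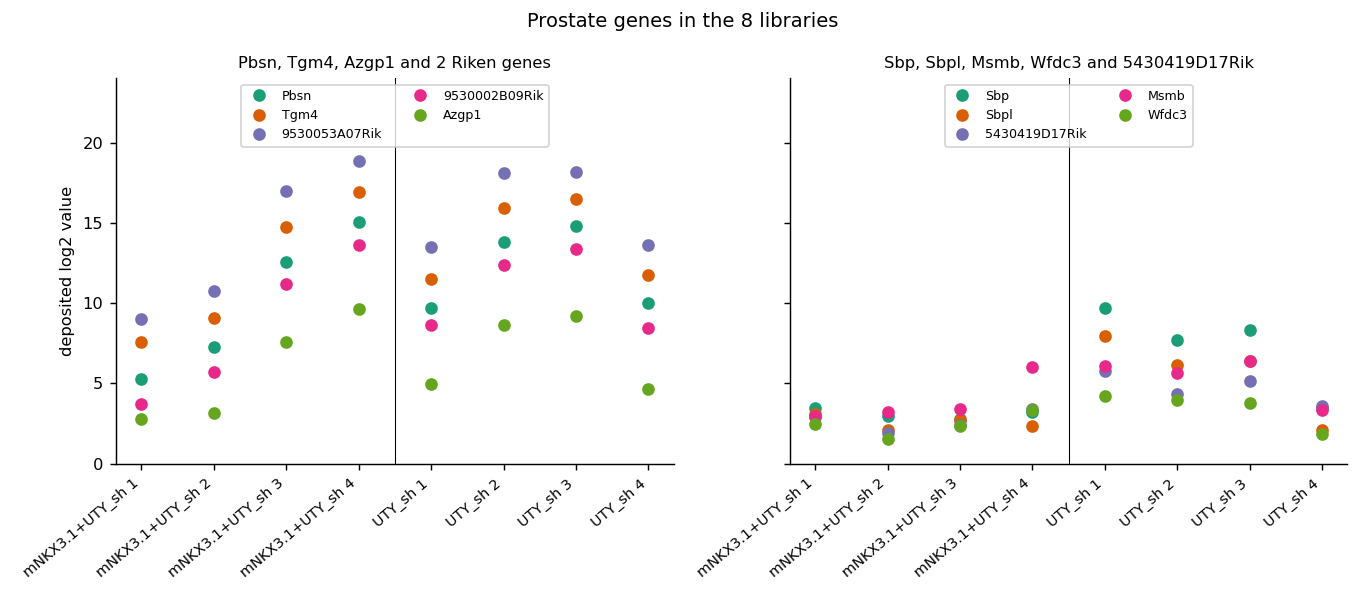
Deposited log2 values of 5 prostate genes per panel in the 8 libraries, mNKX3.1+UTY_sh left of the line and UTY_sh right of it; each colour is 1 gene. Pbsn and its set are high in libraries 3 and 4 of mNKX3.1+UTY_sh and 2 and 3 of UTY_sh, and Sbp is above 7 in 3 UTY_sh libraries only.

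Across all genes, 33 differed by 1 log2 unit or more between the 2 groups, 3 of them higher and 30 lower, and none of them passed the test. The 3 higher ones were Mboat4 at 1.10, Cplx1 at 1.05 and Mapk10 at 1.01. All 3 were low genes, with values of 2.32 to 3.84 in mNKX3.1+UTY_sh and 1.32 to 3.27 in UTY_sh, where genes near the floor vary with a median SD of 0.458. The 30 lower ones included Pbsn, Sbp and the prostate genes above and a group of adipocyte genes.

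Most adipocyte genes had negative differences that did not pass the test. Of 9 listed, 8 were tested, 0 were called, 7 differences were negative, beside 49.3% of all genes, and the median was -0.94. Adipoq, the fat hormone adiponectin, had 4.20, 3.82, 4.87 and 5.11 in mNKX3.1+UTY_sh, against 5.10, 5.55, 6.56 and 6.49 in UTY_sh. The groups overlapped by 1 library, and the difference was -1.43 (95% interval -2.66 to -0.20, limma unadjusted p = 0.0253, exact two-sided permutation p = 0.0571, n = 4 each). Cfd, or adipsin, differed by -1.27, the lipid-droplet genes Cidec and Plin1 by -1.23 and -1.08, and Fabp4, a fatty-acid carrier, by -0.80. The hormone-sensitive lipase gene Lipe went the other way, at 0.13. The mean over the listed genes ran from 5.97 to 6.76 in mNKX3.1+UTY_sh and from 6.4 to 7.66 in UTY_sh. In SVE it ran from 5.06 to 8.07, a span that covers both groups. The part of adipocyte genes in the other results was not tested.

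**Figure D3:**
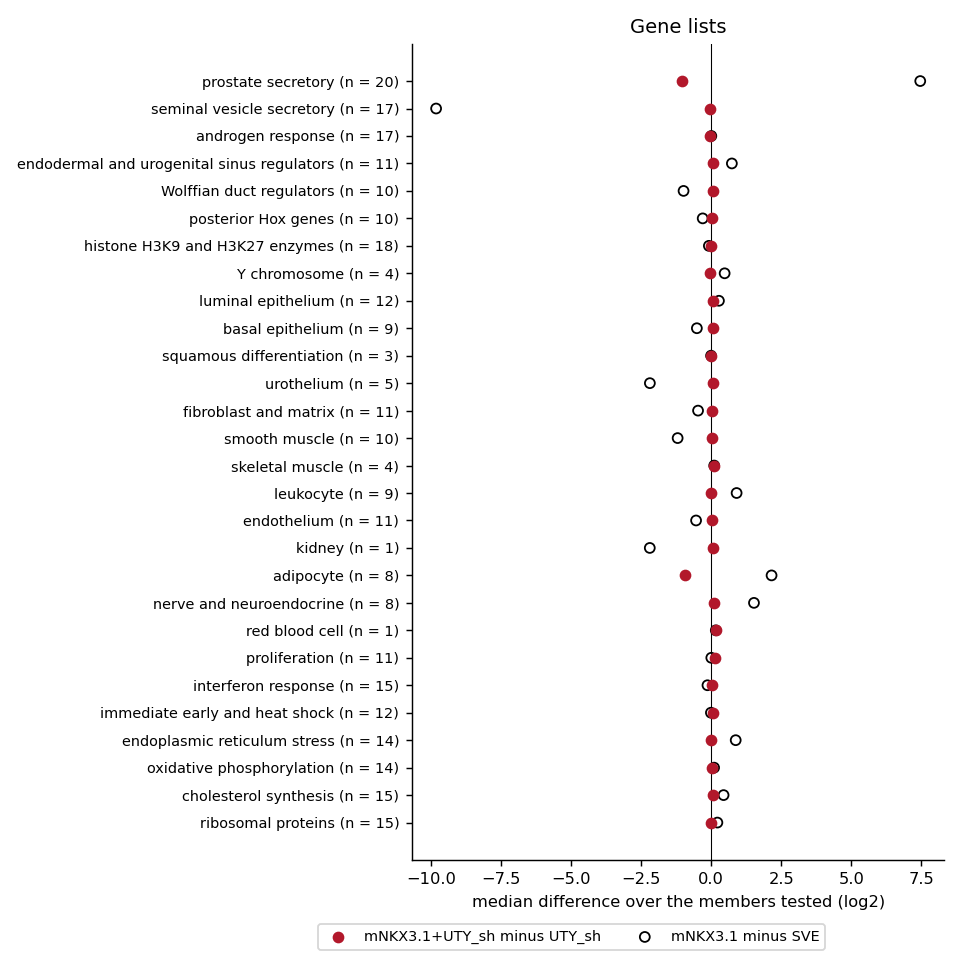
Median log2 difference over the tested members of 28 gene lists (rows), mNKX3.1+UTY_sh minus UTY_sh as filled points and mNKX3.1 minus SVE as open points. Filled points lie near 0 except for the prostate secretory list at -1.06 and the adipocyte list at -0.94.

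Stromal and epithelial lists were close to 0 with the hairpin on both sides. All 10 smooth muscle genes were tested, 0 were called, and all 10 had intervals within 1 log2 unit of 0, with a median of 0.03. Acta2, smooth muscle actin, had 14.66, 14.51, 14.77 and 14.89 in mNKX3.1+UTY_sh, against 14.66, 14.96, 14.51 and 14.72 in UTY_sh. Without the hairpin all 10 were called lower in mNKX3.1, beside 30.6% of all genes, with a median of -1.20, and the interaction was called for all 10, beside 48.1% of all genes. The table does not separate reads of the rat mesenchyme from mouse reads, a limit for these mesenchymal genes in particular. Of 12 luminal epithelium genes, 0 were called and 2 had an unadjusted p below 0.05, Cldn3, a tight-junction claudin, at 0.18 and Krt8, a luminal keratin, at 0.14. Krt8 ran between 11.37 and 11.54 in mNKX3.1+UTY_sh and between 11.22 and 11.39 in UTY_sh, which shows luminal epithelium but does not tell seminal vesicle from prostate, since PE ran between 11.41 and 11.64. The smooth muscle genes Smtn and Lmod1 differed by 0.10 and 0.09. Basal epithelium genes, among them the keratin Krt14 at 0.20 and the integrin Itgb4 at 0.08, had a median of 0.05 over 9 tested. Medians were -0.01 over 9 leukocyte genes, 0.01 over 11 endothelial genes and 0.04 over 11 fibroblast and matrix genes. In each of these lists 0 were called. Only 3 of the 9 leukocyte genes had intervals within 1 log2 unit of 0, beside all 9 basal, 11 endothelial and 11 fibroblast and matrix genes. The collagen Col1a1 differed by 0.13 and the matrix proteoglycan Dcn by -0.08, and the vessel genes Eng and Egfl7 by 0.09 and -0.10. Cd14, a monocyte receptor, differed by 0.33 and overlapped between the groups. Cd68, a macrophage gene, had 6.50, 6.54, 6.64 and 6.73 in mNKX3.1+UTY_sh, against 6.82, 6.80, 6.83 and 7.01 in UTY_sh. All 4 UTY_sh libraries were above the others, but the difference of -0.26 had a 95% interval of -0.80 to 0.27 in the fit of 20 libraries, in which this gene varied more in other groups. Of the 12 kidney markers, from the organ often used as a graft site, only Lrp2 was tested and it differed by 0.06.

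Transcription factors of the 2 ducts did not separate the groups either. Of 11 endodermal and urogenital sinus regulators tested and 10 Wolffian duct regulators tested, 0 were called, with medians of 0.05 and 0.07. Intervals lay within 1 log2 unit of 0 for 8 of the 11 and for all 10. The mean level of the endodermal and urogenital sinus list ran from 7.60 to 9.23 within mNKX3.1+UTY_sh alone. Foxa1, a pioneer factor of the prostate, had 9.04, 9.13, 9.56 and 9.89 in mNKX3.1+UTY_sh, against 9.22, 9.56, 9.70 and 9.04 in UTY_sh, a difference of 0.03 (95% interval -0.46 to 0.52). Its interaction was -2.51 (limma adjusted p = 7.30e-06). Pax2, a factor of the Wolffian duct, had 9.58, 9.72, 9.56 and 9.33 in mNKX3.1+UTY_sh, against 9.50, 9.41, 9.30 and 9.53 in UTY_sh, a difference of 0.11 (95% interval -0.49 to 0.70). Its interaction was 5.41 (limma adjusted p = 6.27e-09). Hoxd9 differed by 0.05 and Gata2 by 0.10, with interactions of 3.79 and 1.92, both called. Hoxa9 and Hoxa11, patterning genes of the duct, differed by 0.34 and 0.16, and the secretory ETS factor Spdef by 0.12. The 17 tested androgen response genes had a median of -0.04 with 0 called and 14 intervals within 1 log2 unit of 0, with Zbtb16 at 0.06.

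Lists of cell state gave the same picture. Endoplasmic reticulum stress genes, which include the chaperone Hspa5 at -0.04, its cofactor Dnajb9 at -0.24 and the transcription factor Xbp1 at 0.07, had a median of -0.01 with 0 of 14 called, whereas without the hairpin 12 of the 14 were called higher in mNKX3.1, beside 31.7% of all genes, with a median of 0.87. Proliferation genes had a median of 0.13 with 0 of 11 called, including the topoisomerase Top2a at 0.32 and the replication helicase gene Mcm6 at 0.15. The interferon response had a median of 0.03 with 0 of 15 called, including Bst2 at 0.16 and Ifit3 at -0.22. Cholesterol synthesis genes, with Mvk at 0.21 and the regulator Srebf2 at 0.14, had a median of 0.06 with 0 of 15 called, ribosomal protein genes -0.02 with 0 of 15, and oxidative phosphorylation genes, with Ndufs1 at 0.09 and Uqcrc1 at 0.08, 0.04 with 0 of 14. Rpl10a differed by -0.12. Immediate early and heat shock genes, which can mark handling of tissue, had a median of 0.07 with 0 of 12 called, with Ier2 at 0.15. Nr4a1, an orphan nuclear receptor among them, had 8.57, 8.54, 8.43 and 8.47 in mNKX3.1+UTY_sh, against 8.31, 8.30, 8.34 and 8.33 in UTY_sh. The groups did not overlap, and the difference was 0.18 (95% interval -0.07 to 0.43). The remaining lists, posterior Hox, Y chromosome, squamous differentiation, urothelium, skeletal muscle, nerve and neuroendocrine and red blood cell genes, had medians between -0.06 and 0.16 and 0 called. In them Ddx3y, on the Y chromosome, differed by -0.09, Sbsn and Krt10 by -0.14 and -0.01, and the uroplakins Upk2 and Upk1b by 0.15 and -0.05. Myh2 and Ckm of skeletal muscle differed by 0.41 and 0.10, Syp of nerve terminals by 0.39, and Alas2, the heme synthesis enzyme of red cells, by 0.16.

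The largest differences at an unadjusted p below 0.05 with no overlap and a mean of at least 5 were under 0.5 log2 units in both directions. The 8 highest were Neurl2 at 0.43, Scoc at 0.37, Mad2l1, the spindle checkpoint gene, at 0.32, Abtb1, Nfkbil1, Spsb2 and Stk19 at 0.31 each, and Rpl38 at 0.30. Stk19 had 8.04, 7.80, 7.92 and 7.96 in mNKX3.1+UTY_sh, against 7.55, 7.72, 7.62 and 7.60 in UTY_sh. The 8 lowest were Pih1d2 at -0.46, Tll1, a matrix metalloprotease, at -0.39, Ufsp1 at -0.35, Spata5 at -0.34, Rps6, a ribosomal protein, at -0.33, 5031434O11Rik at -0.33, Vrk2, a kinase, at -0.30 and AY358078 at -0.30. Ufsp1, which processes the ubiquitin-like protein UFM1, had 6.41, 6.52, 6.41 and 6.36 in mNKX3.1+UTY_sh, against 6.78, 6.84, 6.76 and 6.70 in UTY_sh. The 2 groups stand apart in all 16 by the rule that chose them, and none has an adjusted p below 0.05. Rps6 was the only 1 of the 15 ribosomal protein genes tested with an unadjusted p below 0.05, and counts of such genes can be split with pseudogenes.

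**Figure D4:**
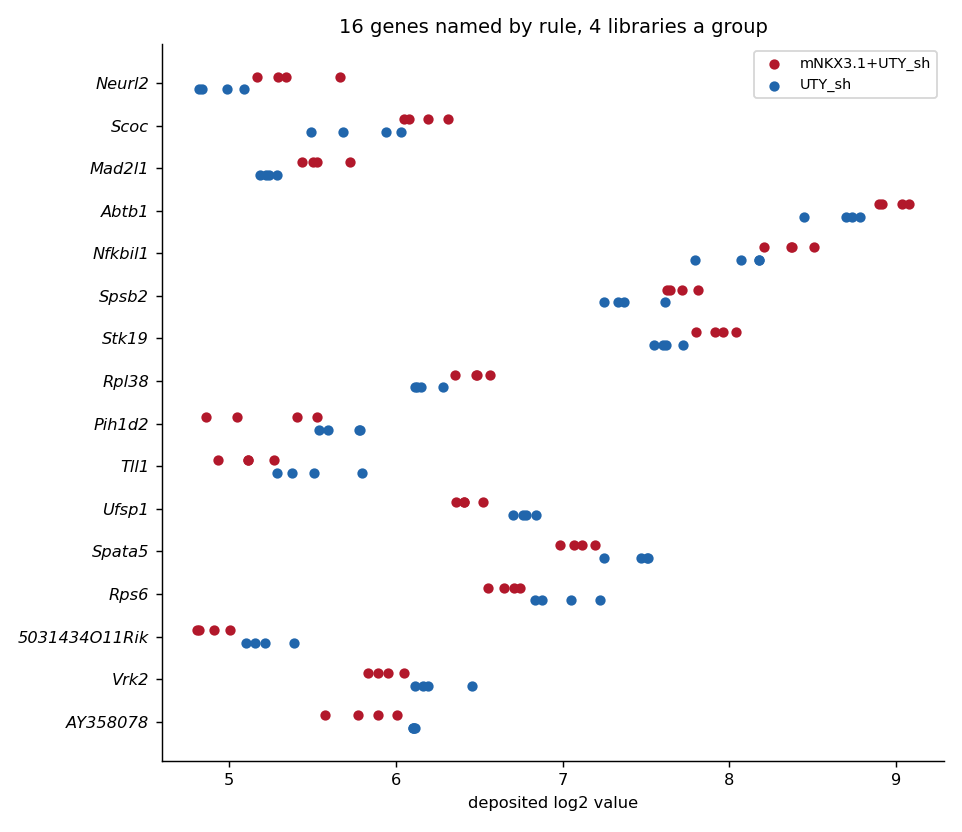
Deposited log2 values of the 16 genes with the largest differences among those at an unadjusted p below 0.05 without overlap; rows are genes, points are libraries, with mNKX3.1+UTY_sh above UTY_sh in each row. Differences run from -0.46 to 0.43.

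The construct's difference with the hairpin was tested against its difference without it. The interaction, mNKX3.1+UTY_sh minus UTY_sh less mNKX3.1 minus SVE, was called by limma for 6467 genes (48.1%), 3234 positive and 3233 negative, and 2175 of them (16.2% of those tested) were 1 log2 unit or more. The construct's comparison without the hairpin called 8385 genes (62.3%), 2249 of them (16.7%) at least 2-fold, and its median size of difference was 0.353, beside 0.0582 with the hairpin. After Sva and Svs6, the largest positive interactions were Ceacam10 at 10.91, Dnase2b at 10.89, Svs3a at 10.86, Svs3b at 10.85, Svs1 at 10.76 and Spinkl, a Kazal-type inhibitor, at 10.65. The largest negative ones were the prostate genes Sbp at -17.45, Sbpl at -14.93, 5430419D17Rik at -12.75, Msmb at -11.56, Wfdc3, a WAP-type inhibitor, at -10.37, Defb50, a defensin, at -10.33, 9530002B09Rik at -10.33 and Pbsn at -9.89. In each of the 16 the size comes mostly from the comparison without the hairpin. The differences of mNKX3.1 from SVE ran from -11.34 to -10.67 in the positive ones and from 7.85 to 13.24 in the negative ones. With the hairpin on both sides the differences ran from -0.07 to 0.01 and from -4.22 to -1.04. The 4 groups of the interaction share no library between its 2 comparisons.

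**Figure D5:**
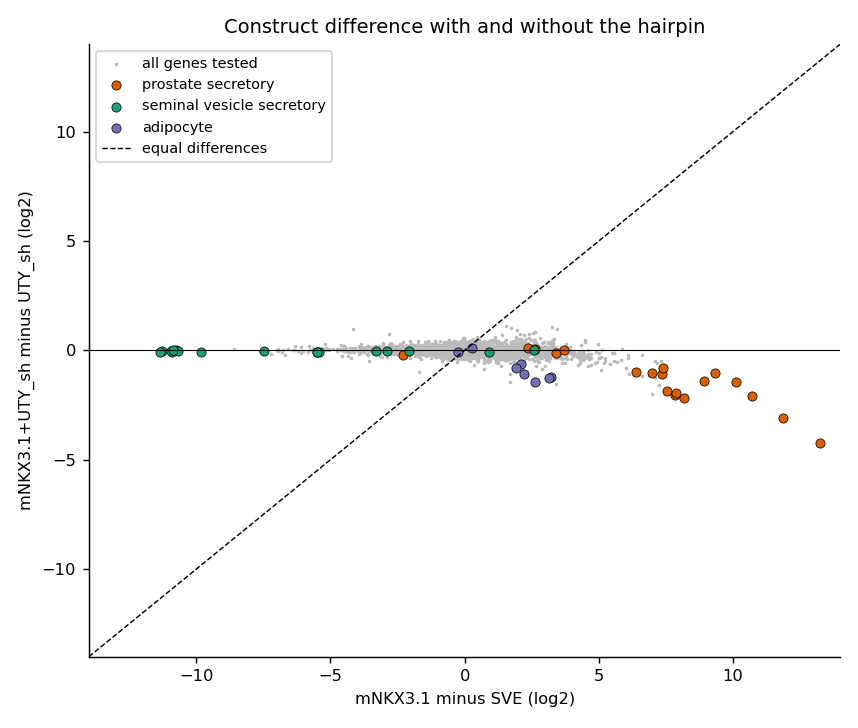
Each tested gene's log2 difference of mNKX3.1+UTY_sh minus UTY_sh (vertical) against that of mNKX3.1 minus SVE (horizontal). Prostate secretory, seminal vesicle secretory and adipocyte genes are coloured, and the dashed line marks equal differences. Most points lie near 0 on the vertical axis. Several prostate genes far to the right lie below it, such as Pbsn at -2.04, with Sbp lowest at -4.22.

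Genes that separate prostate from seminal vesicle grafts were followed through the comparison. PE against SVE called 8362 genes (62.1%), 31.8% higher and 30.4% lower. At least 2-fold higher in PE were 1050 genes and at least 2-fold lower 1070, together 15.8%, and no PE or SVE library enters the mNKX3.1+UTY_sh against UTY_sh difference. Of the 1050 genes higher in PE, 0 were called between mNKX3.1+UTY_sh and UTY_sh, the median difference was -0.018 (-0.0758 without the libraries richest in Pbsn, UTY_sh 3, mNKX3.1+UTY_sh 4 and SVE 1), 29 were 1 log2 unit or more lower and 3 were 1 or more higher. Intervals of that difference lay within 1 log2 unit of 0 for 716 of the 1050 (68.2%), beside 95.5% of all genes. The 1050 genes had a median of 1.78 for mNKX3.1 minus SVE, and 990 of them were called in the interaction, beside 48.1% of all genes. Of the 1070 genes lower in PE, 0 were called, the median was 0.018 (0.0429 without those libraries) and none differed by 1 log2 unit or more. Their intervals lay within 1 log2 unit of 0 for 1020 (95.3%). Their median for mNKX3.1 minus SVE was -1.55, and 1035 were called in the interaction, beside 48.1% of all genes. SVE is shared by the PE comparison, the mNKX3.1 comparison and the interaction, so the last counts are not independent of the choice of genes. Over all 13456 genes the differences with and without the hairpin correlated at r = -0.257, a description across genes, which are not independent replicates, with a slope of -0.0334.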

How the data were processed

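Poly-A RNA of 20 tissue recombinants was sequenced on an Illumina instrument from TruSeq libraries, per the labels' protocols. Software named in the submitters' processing notes is TopHat2 2.0.4, Cufflinks 2.0.2, bcl2fastq 1.8.4 and DESeq, with the mouse build mm9. Not given in the sources used here are the read counter, the annotation, strand and how rat reads were handled. Each gene and library has 1 deposited log2 value. From a log2 value of 11 to 13, the antilogs in each library rose in whole steps (100% whole within 0.1), so the authors' values are counts scaled per library. Below about 10.7 no steps were seen, low values are compressed towards a floor, and differences between low genes are understated. No count test was run, because low values could not be turned into reads, and depths are approximate.

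Groups came from the sample titles, and libraries are numbered in accession order only to name them. limma 3.58.1 (R 4.3.3) was used for 1 linear model of the 20 libraries with a mean per group, with a trend of variance on expression and Benjamini-Hochberg adjustment over the 13456 genes kept. The spread is shared by all groups, so intervals are wide for genes that varied elsewhere. The fit was tested on simulated data. Exact permutation tests are two-sided. The genes named are Uty, Ehmt2, the 8 highest and 8 lowest differences at an unadjusted p below 0.05 with no overlap and a mean of at least 5, the 8 largest interactions each way, the 6 most abundant members of both secretory lists and the 2 members with the smallest p of the other lists. Some genes that this rule names are not reported here. Other genes in the text are members of the lists or of the 33 differences of 1 log2 unit or more and were chosen after their values were seen. The genes, the 28 lists and the tests were chosen with earlier results of these data known. Alternatives covered the libraries fitted, filters, scaling, the low end, the variance model, library weights, each library left out and the libraries richest in Pbsn left out. The same alternatives for mNKX3.1 against SVE and PE against SVE, and the removal of UTY_sh 3 and mNKX3.1+UTY_sh 4 with SVE 1 kept, and the contrast of UTY_sh with SVE for Uty, were added after the data were seen.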

Additional observations from a re-analysis of the deposited data

Results flagged for a closer look

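A library far from the other 3 of its group was found for 10 of 172 genes and groups examined and for 3 of 56 list means, where chance gives about 1 in 20. Library 4 of mNKX3.1+UTY_sh stood high for Msmb at 6.039, Defb50 at 7.855, Uty at 9.291 and Ddx3y at 10.62, and it also had the highest Pbsn of the 8 libraries. Library 2 of mNKX3.1+UTY_sh stood low for Myh2 at 4.264 and for the fibroblast and matrix list mean at 10.48, and high for the oxidative phosphorylation list mean at 10.65. In UTY_sh, library 4 stood high for Ehmt2 at 11.42 and for Egfl7 at 8.095. Library 2 of UTY_sh stood low for Spata5 at 7.248 and Svs4 at 21.54, library 1 stood low for Dcn at 12.23, and library 3 stood high for the endoplasmic reticulum stress list mean at 11.85.

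The construct's difference with the hairpin differed from that without it, by the interaction in limma, for 6467 genes. Among them, the positive ones named were Sva at 11.26, Svs6 at 11.25, Ceacam10 at 10.91, Dnase2b at 10.89, Svs3a at 10.86, Svs3b at 10.85, Svs1 at 10.76 and Spinkl at 10.65. The negative ones named were Sbp at -17.45, Sbpl at -14.93, 5430419D17Rik at -12.75, Msmb at -11.56, Wfdc3 at -10.37, Defb50 at -10.33, 9530002B09Rik at -10.33 and Pbsn at -9.888.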

How the results depend on the processing

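limma called 0 genes between mNKX3.1+UTY_sh and UTY_sh under all 18 alternatives. The number at an unadjusted p below 0.05 was 217 in the fit reported, 647 with no filter on low values, 396 with array weights, and 133 to 355 with 1 library left out. Without UTY_sh 3, mNKX3.1+UTY_sh 4 and SVE 1, the libraries richest in Pbsn, limma again gave 0 calls, and 225 genes had an unadjusted p below 0.05 (181 with SVE 1 kept). The interaction called 5565 to 7341 genes over 26 alternatives, mNKX3.1 against SVE 6969 to 8865 and PE against SVE 6971 to 9017. Library medians made equal and quantile normalization moved the median of all differences from 0.00125 to 0.0063 and 0.00178. Without the libraries richest in Pbsn, the median of the prostate secretory list was -1.54, and that of the endothelium list -0.063. With 1 library left out, the prostate median ran from -2.29 to -0.366 and the Pbsn difference from -3.71 to -0.451. With 32 added to the antilogs, the prostate and adipocyte medians were -0.523 and -0.570, Sbp -2.55 and Adipoq -0.773. No paired analysis was possible because the labels give no replicate numbers and nothing pairs libraries across groups.

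The signs that turned belong to genes that passed the test in no setting and lay close to 0. With library medians made equal, the sign turned for Svs1 at 0.001271 and Gsdma at 0.002063. With quantile normalization, the sign turned for Svs6 at 0.004708, Svs3b at 0.04991, Spinkl at 0.01447, 9530003J23Rik at 0.03218 and Krt10 at 0.01193. With array weights, the sign turned for Svs6 at 0.0173, Ceacam10 at 0.006054, Svs3a at 0.00149, Svs1 at 0.01154, Spinkl at 0.00263 and Svs5 at 0.005327. Without the libraries richest in Pbsn, the sign turned for Sva at 0.1664, Svs6 at 0.1815, Ceacam10 at 0.09501, Svs3a at 0.07774, Svs3b at 0.05902, Svs1 at 0.04902, Spinkl at 0.1061, Pate4 at 0.04786, Svs2 at 0.03731, Svs5 at 0.07946, Svs4 at 0.04225, 9530003J23Rik at 0.06152, Krt10 at 0.01828, Smtn at -0.01625, Ckm at -0.03479 and Mcm6 at -0.02841. Leaving out each library in turn, the sign turned at least once for these genes, whose ranges were Ceacam10 -0.1091 to 0.06914, Svs3a -0.1016 to 0.09295, Svs1 -0.08766 to 0.1149, Spinkl -0.09292 to 0.08381, Svs5 -0.07217 to 0.06988, 9530003J23Rik -0.1029 to 0.05263, Krt10 -0.0731 to 0.044, Dnase2b -0.06358 to 0.1206, Gsdma -0.5487 to 0.4442, Lrp2 -0.2238 to 0.2437, Uty -0.1468 to 0.03345, Svs6 -0.1634 to 0.1413, Ddx3y -0.1738 to 0.01085, Upk1b -0.1136 to 0.0186, Lmod1 -0.01524 to 0.1644, Mcm6 -0.07839 to 0.2863, Sva -0.2065 to 0.1089, Svs3b -0.1406 to 0.04349, Pate4 -0.1196 to 0.00985, Svs2 -0.1635 to 0.02125 and Svs4 -0.1726 to 0.02189. The cause was not tested. Low values limit the genes near the floor, and approximate depths are similar in both groups.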
